A study of Sus scrofa with 12 samples.

Results

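The miR-15 and miR-16 family was followed in small RNA libraries of the uterus of newborn gilts, which are young female pigs. The family was taken as every row of the deposited expression table named miR-15a, miR-15b, miR-16, miR-195, miR-424, miR-497 or miR-503, with any arm, that stood above the table's floor value of 1 in at least 4 of the 12 libraries. Of the 420 rows, 4 met this: ssc-miR-16, ssc-miR-15b, ssc-miR-195 and ssc-miR-497, written below without the prefix for Sus scrofa. The other 3 names were not analysed here. Every row with a family name passed the floor criterion, miR-497 in 11 libraries and the others in 12.

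Each library came from 1 crossbred animal (Landrace, Yorkshire, Duroc, Hampshire), with 4 animals per group. The PND0 group was killed within 1 h of birth without having nursed. The PND2N group nursed at will for 48 h, the PND2R group was given a commercial milk replacer over the same 48 h, and both were killed at 50 h of age. PND2N against PND2R therefore compares feeding at 1 age, whereas either PND2 group against PND0 compares age together with feeding, which cannot be told apart. The trimmed whole organ was extracted, so that fewer cells of a type and less RNA per cell cannot be told apart either.

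The miR-15 and miR-16 family is a group of miRNAs with a common seed, the short stretch at the 5′ end that pairs with target mRNAs. In human and mouse cells its members lower the mRNAs of D- and E-type cyclins, of cyclin-dependent kinases and of the survival factor BCL2, and so hold cells in the G1 phase. In the mouse heart they rise after birth as muscle cells leave the cell cycle. The uterus of the pig goes on growing after birth, when its glands form. Members are transcribed in pairs. In the RefSeq annotation of another pig assembly, Sscrofa11.1, no annotated gene lay between MIR15B and MIR16-1, both inside SMC4 (a condensin subunit needed for mitotic chromosomes), between MIR15A and MIR16-2, or between MIR195 and MIR497. Mature miR-16 is made from more than 1 precursor in mammals, and the table gives it in 1 row, so the source loci of its reads are not separated.

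Values below are shares, each deposited value divided by its library's total and given in parts per 1000000 (ppm). The libraries held 37462 to 12159233 miRNA reads, recovered from the steps between the deposited values. Under 100000 reads were found in 4 libraries, PND2N replicate 2 and PND2R replicates 1, 2 and 3, so depth and feeding partly coincide. The organ check gave miR-143 and miR-145, of smooth muscle, a summed share of 94902 to 290808 ppm over the 12 libraries, and the HOX cluster miRNAs miR-10 and miR-196 one of 46103 to 78903. The liver miRNA miR-122 did not exceed 13.4.

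**Figure D1:**
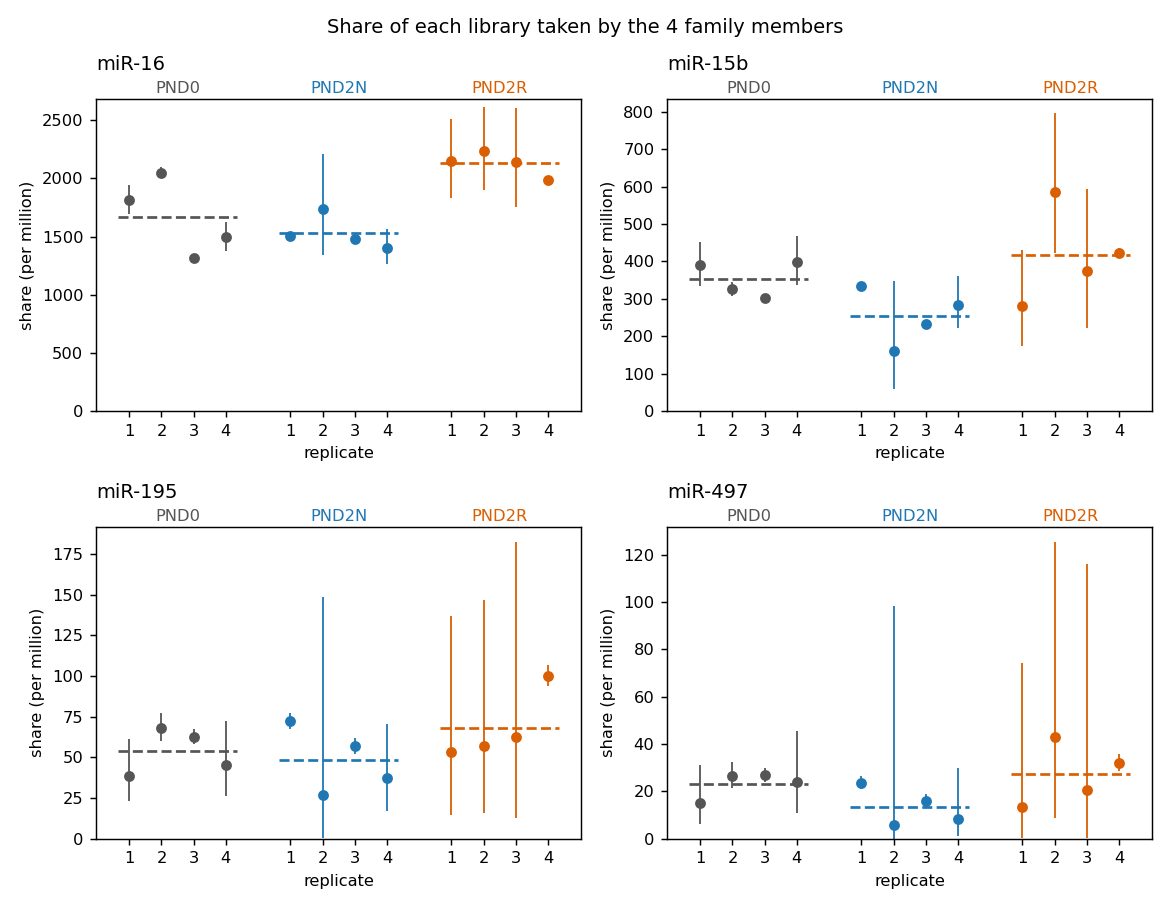
Share in ppm (y axis, linear from 0) of each family member in each library (x axis, replicates within a group); vertical lines are exact 95% Poisson intervals of the recovered reads and dashed lines the group means (n = 4). For miR-16 the 4 PND2R libraries, at 1987 to 2232, lie above the 4 PND2N libraries, at 1405 to 1733.

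miR-16, which targets cyclins and BCL2, was the family's most abundant member, ranking 58 of 420 rows by mean share. In PND0 replicates 1 to 4 its share was 1814, 2049, 1312 and 1497 ppm. In PND2N it was 1502, 1733, 1479 and 1405, and in PND2R it was 2151, 2232, 2145 and 1987. All 4 replacer-fed animals were thus above all 4 nursed animals, and the newborns spanned a range that reached into both groups. The means were 1668 ± 328 (SD, n = 4) in PND0, 1529.7 ± 142 in PND2N and 2129 ± 103 in PND2R. Counting error was small beside these differences in the deep libraries but not in the shallow ones. PND2R replicate 4 rested on 18667 reads (95% Poisson interval 1958 to 2015 ppm), PND2R replicate 3 on 103 (1752 to 2603) and PND2N replicate 2 on 65 (1339 to 2212). The interval of this last library included the values of 3 of the 4 PND2R libraries.

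miR-15b, transcribed next to a miR-16 copy, ranked 100 of 420. Its share was 389, 327, 302 and 399 ppm in PND0 replicates 1 to 4. It was 335, 160, 234 and 284 in PND2N, and 281, 587, 375 and 422 in PND2R. All 3 groups overlapped. The lowest value, in PND2N replicate 2, came from 6 reads (interval 58.8 to 349) and the highest, in PND2R replicate 2, from 41 reads (421 to 797). The means were 354 ± 47.5 (SD, n = 4) in PND0, 253 ± 74.7 in PND2N and 416 ± 128 in PND2R.

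miR-195, which lowers a checkpoint kinase in the mouse heart, ranked 149. Its share was 38.7, 68.2, 62.7 and 45.2 ppm in PND0, then 72.4, 26.7, 56.9 and 37.1 in PND2N, and 53.4, 57.2, 62.5 and 100.03 in PND2R. Among the libraries over 1000000 reads, PND2R replicate 4 stood highest, from 940 reads, and its interval of 93.8 to 107 lay above those of the other 4 such libraries. The 3 shallow PND2R values rested on 3 or 4 reads each, and PND2N replicate 2 on 1 read.

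miR-497, the partner of miR-195 in its cluster, ranked 191. Its share was 15.1, 26.7, 26.9 and 23.9 ppm in PND0. It was 23.5, 15.8 and 8.24 in PND2N replicates 1, 3 and 4, and 13.4, 42.9, 20.8 and 32.1 in PND2R. In PND2N replicate 2 it was listed at the floor, with 0 of 37462 reads, for which a limit of 3 reads allows a share of up to 80.1 ppm and the two-sided exact Poisson interval drawn in the plot by library ends at 98.5. The 3 shallow PND2R libraries held 1 to 3 reads. The main fit below weighs each library alike, so for miR-497 it rests in part on these low counts. Over the pooled reads of each group, in which deep libraries weigh most, miR-497 stood at 26.4 ppm in PND0, 20.2 in PND2N and 32.0 in PND2R. Pooled miR-195 stood at 62.8, 65.5 and 99.2, pooled miR-15b at 312, 293 and 422, and pooled miR-16 at 1489, 1492 and 1991. PND2R was highest for all 4 members in these pools, where a single library, replicate 4, supplied most of its reads.

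**Figure D2:**
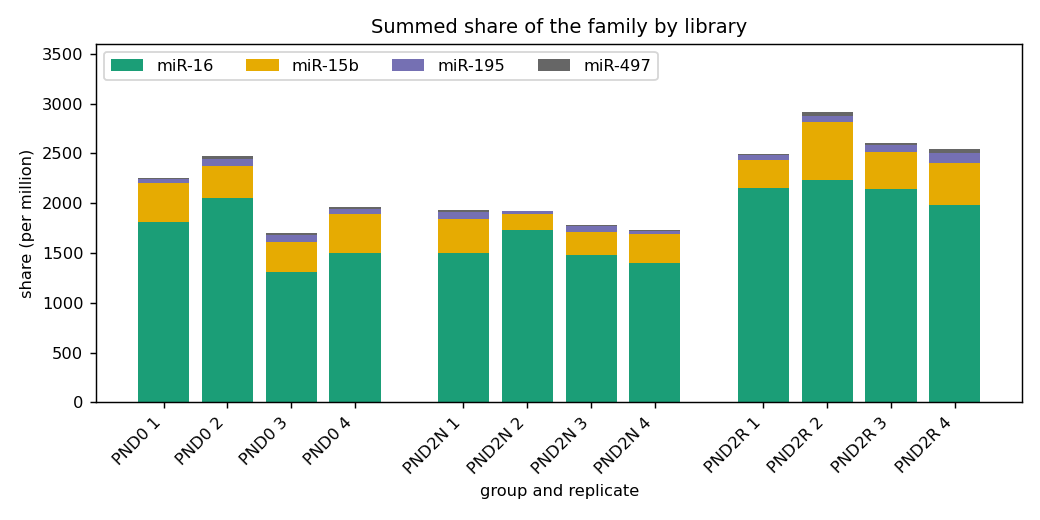
Summed share in ppm (y axis, linear from 0) of the 4 family members in each library (x axis); colours are the members. On shares without re-centring, the PND2R bars, 2498 to 2919, stand above the PND0 bars, 1703 to 2471, and the PND2N bars, 1734 to 1933. The PND2N replicate 2 bar rests on 65 reads of miR-16. The lowest PND2R bar, replicate 1, is close to the highest PND0 bar and rests on 161 reads of miR-16. miR-16 fills 76.2% to 90.01% of every bar.

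Summed over its 4 members, the family took 0.210% ± 0.0335 (SD, n = 4) of the library in PND0, 0.184% ± 0.0100 in PND2N and 0.264% ± 0.0191 in PND2R. On these shares, without re-centring, the PND2R libraries, 0.250% to 0.292%, did not overlap with PND0, 0.170% to 0.247%, or with PND2N, 0.173% to 0.193%. The gap to PND0 was narrow, between PND2R replicate 1 at 2498 ppm and PND0 replicate 2 at 2471. PND2R replicate 1 rested on 161 reads of miR-16 (95% Poisson interval 1833 to 2512 ppm) and 21 of miR-15b. No single member separated PND2R from PND0, and miR-16 was higher in PND2R in 15 of 16 pairs of libraries. Re-centring by TMM factors, described below, raises the sum of PND2N replicate 2 above those of PND2R replicates 1 and 4. The sums of PND2N and PND2R then overlap. That PND2N library, at 1925 ppm before re-centring, rested on 65 reads of miR-16 and 6 of miR-15b. The family sum is a description without a test, and it follows miR-16. The makeup of the family overlapped between all groups: miR-16 made up 79.1% ± 3.11 of the family's share in PND0, 82.9% ± 5.20 in PND2N and 80.8% ± 4.33 in PND2R. Such proportions between miRNAs also carry the ligation and PCR preferences of each sequence.

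Ratios within a library do not depend on its scaling. miR-16 exceeded miR-15b by 3.75 to 6.27 times in PND0, 4.49 to 10.8 times in PND2N and 3.80 to 7.67 times in PND2R, with overlap of all groups. The highest ratio belonged to PND2N replicate 2, with its 6 reads of miR-15b. miR-195 exceeded miR-497 by 1.89 to 2.57 times in PND0. The ratio was 3.08 and 3.59 in PND2N replicates 1 and 3, 4.50 in PND2N replicate 4 and 1.33 to 4.00 in PND2R. Several of these values rest on few reads of miR-497: 2 in PND2N replicate 4, 7 and 9 in PND0 replicates 1 and 4, and 1 to 3 in the shallow PND2R libraries. In the libraries over 1000000 reads it was 2.56 and 2.33 in PND0, 3.08 and 3.59 in PND2N and 3.11 in PND2R, each from at least 95 reads of miR-497. This ratio was singled out after its values were seen, and it was not tested.

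Nursed and replacer-fed gilts of the same age were compared by limma on log2(share + 10) over all 268 rows that exceeded the floor in 4 or more libraries, with Benjamini-Hochberg adjustment. All 4 family members had lower fitted levels in nursed gilts, and 0 of 4 passed an adjusted p of 0.05, against 0% of all rows tested. The median log2 difference of the 4 was -0.57, beside -0.11 over all rows, of which 61.9% lay below 0. Unadjusted p was under 0.05 for 3 of the 4, miR-16, miR-15b and miR-497, all in the lower direction, against 12.7% of all rows in either direction and 9.70% in the lower one. This count fell to 0 of 4 with TMM factors, which re-centre the shares, and to 0 of 4 without the libraries under 100000 reads, and it was 1 of 4 without PND2N replicate 2, PND2R replicate 2 or PND2R replicate 4.

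For miR-16 the log2 difference, PND2N minus PND2R, was -0.48 ± 0.17 (SE), with a 95% interval of -0.84 to -0.12 and an adjusted p of 0.266 by limma. The ratio of the mean shares was 0.719. On these shares, without re-centring, PND2N lay above PND2R in 0 of 16 pairs of libraries. Groups that do not overlap in this direction were seen for 4.85% of all rows. On the same shares the two-sided exact permutation test gave p = 0.0286, the smallest that 4 against 4 animals allow, and 0.425 after adjustment over all rows. By limma's p, miR-16 ranked 12 of 268 rows. Permutation tests were made for all 268 rows in each of the 3 comparisons.

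For miR-15b the log2 difference was -0.70 ± 0.28 (SE), with a 95% interval of -1.29 to -0.10 (limma adjusted p = 0.334). PND2N lay above PND2R in 2 of 16 pairs. The exact permutation p was 0.0857, and 0.560 after adjustment over all rows. For miR-497 the log2 difference was -0.67 ± 0.31 (limma adjusted p = 0.376), and PND2N lay above PND2R in 3 of 16 pairs, with an exact permutation p of 0.143. For miR-195 it was -0.46 ± 0.33, with an interval of -1.15 to 0.24 that includes 0 (limma adjusted p = 0.598) and PND2N above in 4 of 16 pairs. Without PND2N replicate 2 the miR-195 difference was -0.26 and without PND2R replicate 4 it was -0.28. The lower ends of the 4 intervals ran from -1.33 to -0.84, so that the fits show neither a difference past the threshold nor that a member was alike in both groups.

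**Figure D3:**
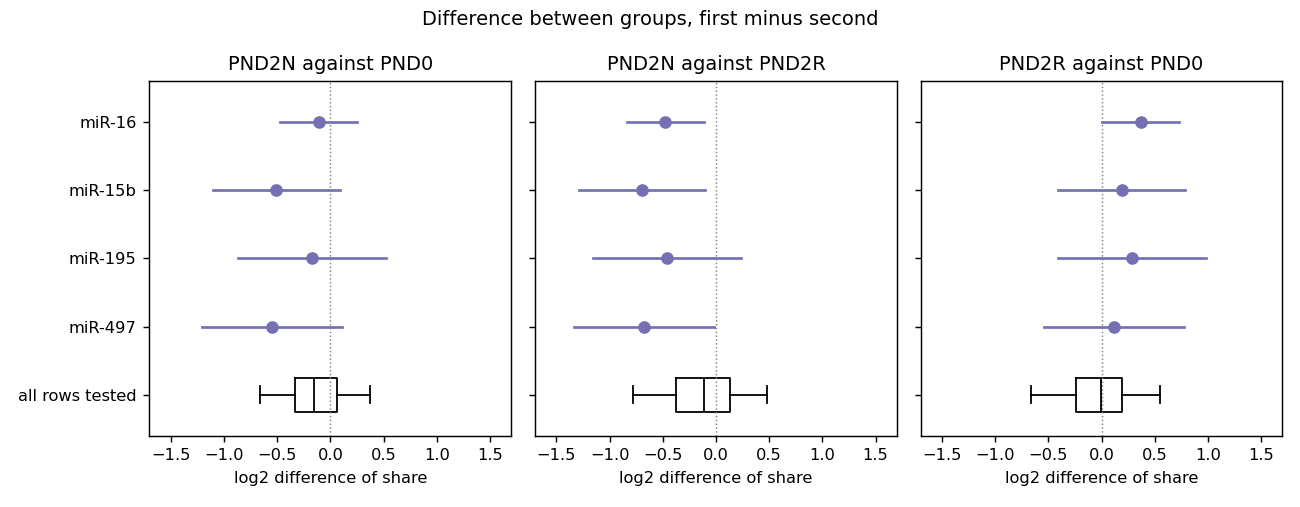
log2 difference of share (x axis, first group minus second, limma fit over 12 libraries) for the 4 members in the 3 comparisons; points are estimates, lines 95% intervals, and the box shows the quartiles of all 268 rows with whiskers at the 5th and 95th percentiles. For PND2N against PND2R the 4 members lie from -0.70 to -0.46, left of the median of all rows at -0.11.

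Scaling moved this comparison. When shares were re-centred by TMM factors, which assume that most miRNAs do not differ, the median over all rows went from -0.11 to 0.0023 and the miR-16 difference to -0.31 (limma adjusted p = 0.533). The re-centred differences of miR-15b, miR-195 and miR-497 were -0.54, -0.33 and -0.59. PND2N replicate 2, with 65 reads of miR-16, had a TMM factor of 0.762, by which its share is divided. The factors of the PND2R libraries were 1.01 to 1.06. Division by these factors raises the miR-16 share of PND2N replicate 2 above those of all PND2R libraries, so the groups then overlap. On the deposited values, not converted to shares, the miR-16 difference was -0.24 ± 0.88 (SE), on a scale whose median for all rows was 0.10.

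Depth was examined because 3 of the 4 PND2R libraries were shallow. Among libraries over 1000000 reads, miR-16 stood at 1502 and 1479 ppm in PND2N and 1987 in PND2R. Among libraries under 100000 reads it stood at 1733 in PND2N and at 2145 to 2232 in PND2R. Within each depth class 1 group had a single library, and that of PND2N under 100000 reads rested on 65 reads. For miR-15b the deep libraries gave 335 and 234 in PND2N against 422 in PND2R, and the shallow ones 160 against 281 to 587. Leaving out the libraries under 100000 reads left 1 PND2R library, assumed to vary like the other groups. The miR-16 difference was then -0.44 (limma adjusted p = 0.998) and that of miR-15b -0.57 (limma adjusted p = 0.998), and 0 of 268 rows had an unadjusted p under 0.05. With depth class, over or under 1000000 reads, as a term in the fit, a setting chosen after seeing the data, the miR-16 difference was -0.46 (limma adjusted p = 0.130, the smallest of its alternatives) and that of miR-15b -0.71 (adjusted p = 0.165). Depth and feeding coincide in part, and the part of depth in the difference was not tested.

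**Figure D4:**
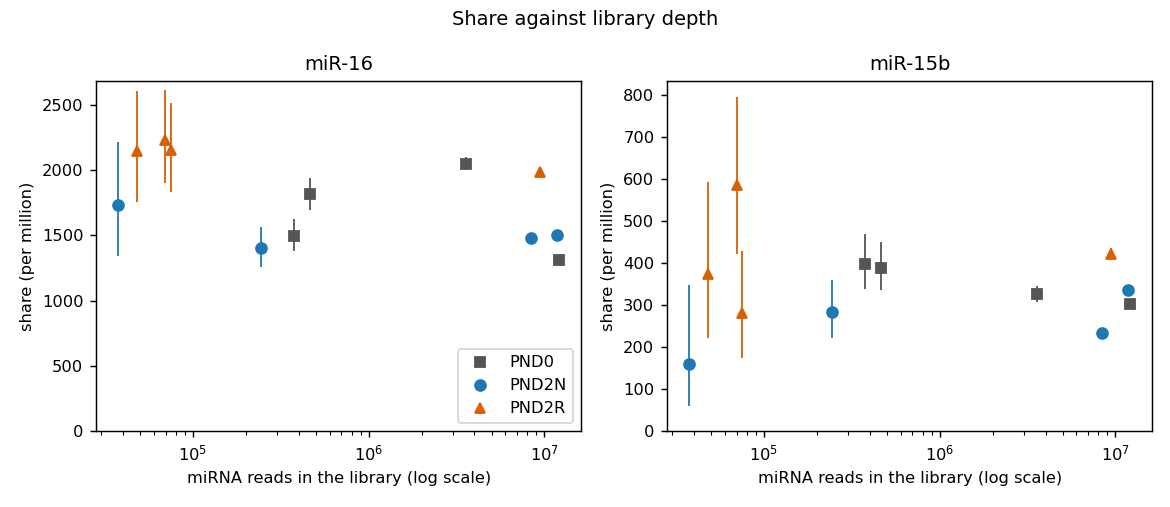
Share in ppm (y axis, linear from 0) of miR-16 and miR-15b against the miRNA reads of the library (x axis, log scale); symbols are groups and vertical lines exact 95% Poisson intervals. The miR-16 points of PND2N are at 1733 in the shallowest library and at 1502 and 1479 among the deepest; 1 PND2R library, at 1987, is among the deepest and 3 are among the shallowest.

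Marker lists of other cell types were set beside the family, red cells first because they are rich in miR-16. The red cell miRNAs miR-451, miR-144 and miR-486 had rows for 3 of 3 names and a summed share of 94.8 to 460 ppm in PND2N, 170 to 472 in PND2R and 335 to 554 in PND0. For PND2N against PND2R, 2 of their 3 rows lay below 0 (median log2 difference -0.17). The leukocyte list, miR-142, miR-150, miR-155 and miR-223, had rows for 3 of 4 names and a sum of 213 to 433 in PND2N, 375 to 501 in PND2R and 380 to 488 in PND0, and 3 of the 4 rows tested lay below 0 (median -0.38). The mesenchymal list, miR-199a and miR-214, summed to 77654 to 144249 in PND2N, 124569 to 143453 in PND2R and 124205 to 155960 in PND0, with 5 of 5 rows below 0 (median -0.34).

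Both muscle lists and the epithelial list also had medians below 0 for PND2N against PND2R, as did all rows (-0.11). The HOX cluster list went the other way, with 4 of its 7 rows tested above 0 (median 0.32). Endothelial miR-126 had 1 row above 0 and 1 below (median -0.044), and the liver row lay at -0.035. Striated muscle, miR-1, miR-133a, miR-133b and miR-206, had 7 rows for 4 of 4 names, and 7 of 7 lay below 0 (median -0.31). Both arms of miR-133a have more than 1 row among these. For PND2R against PND0, 6 of these 7 rows lay above 0 (median 0.53). Their summed share was 2719 to 4818 ppm in PND2N, 2790.0 to 4315 in PND2R and 1822 to 2996 in PND0, and most of it was miR-1. Of the smooth muscle rows, 3 of 4 lay below 0 (median -0.22), and 3 of 4 above 0 for PND2R against PND0 (median 0.46). The epithelial list had rows for 2 of its 6 names, miR-205 and miR-429, and both lay below 0 (median -0.45). Their sum was 320 to 1061 in PND2N, 687 to 1070 in PND2R and 856 to 1134 in PND0. No row of these lists passed an adjusted p of 0.05 by limma, and their part in the family's difference was not tested.

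Nursed gilts were then compared with newborns. All 4 members were again lower in the fit, and 0 passed, against 0% of all rows, of which 66.4% lay below 0. Unadjusted p was under 0.05 for 0 of the 4 members and for 8.21% of all rows. The median log2 difference of the 4 was -0.34, beside -0.15 over all rows. For miR-15b, PND2N minus PND0 was -0.51 ± 0.28 (SE; 95% interval -1.10 to 0.088; limma adjusted p = 0.668), and without PND2N replicate 2, the library of 6 miR-15b reads, it was -0.31. For miR-497 it was -0.55 ± 0.31 (limma adjusted p = 0.668). For each of these members, 2 of 16 pairs of libraries had the nursed animal above the newborn. For miR-16 the log2 difference was -0.11 ± 0.17, with an interval of -0.47 to 0.25 and a limma adjusted p of 0.885, and its sign changed to 0.10 after TMM re-centring. For miR-195 it was -0.17 ± 0.33 (limma adjusted p = 0.891), and 0.029 without PND2N replicate 2.

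Between replacer-fed gilts and newborns all 4 members were higher in the fit, and 0 passed, against 0% of all rows, of which 48.9% lay above 0. The median log2 difference of the 4 was 0.24, beside -0.0052 over all rows. miR-16 was the member with an unadjusted p under 0.05, as were 12.3% of all rows: its log2 difference, PND2R minus PND0, was 0.37 ± 0.17 (SE), with an interval of 0.0082 to 0.73 (limma adjusted p = 0.388). PND2R lay above PND0 in 15 of 16 pairs, PND0 replicate 2 at 2049 ppm being above PND2R replicate 4 at 1987. The exact permutation p was 0.0571, and 0.464 after adjustment over all rows. The log2 difference was 0.19 ± 0.28 for miR-15b (limma adjusted p = 0.938), 0.29 ± 0.33 for miR-195 (0.897) and 0.12 ± 0.31 for miR-497 (0.973). These 3 values turned on single libraries. miR-15b went to 0.010 without PND2R replicate 2, to 0.12 without PND0 replicate 3 and to 0.36 without PND2R replicate 1. miR-195 went to 0.11 without PND2R replicate 4 and to 0.17 without PND0 replicate 1. It was 0.82 without the libraries under 100000 reads, which left PND2R replicate 4 alone in its group, at 100.03 ppm. miR-497 ranged from -0.070 without PND2R replicate 2 to 0.32 without PND2R replicate 1. On the deposited values all 4 members had the opposite sign, miR-16 at -0.24 and miR-15b at -0.41, on a scale whose median for all rows was -0.58. Both comparisons with newborns share the same 4 PND0 libraries, and the 3 comparisons are not independent of each other.

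The order of the group means was PND2R, PND0, PND2N for all 4 members. No neighbours in this order differed past the adjusted threshold, and their libraries overlapped for each member, least for miR-16 in PND2R and PND0.

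Other miRNAs tied to cell growth were set beside the family. miR-103 and miR-107, which carry a sequence overlapping the family's seed by a shift, had 3 rows, and 0 passed in any comparison by limma. Their median log2 difference for PND2N against PND2R was -0.38, and 0.076 for PND2R against PND0. The more abundant of the 2 miR-103 rows stood at 3790.2 ± 1231 ppm (SD, n = 4) in PND0, 3337 ± 1646 in PND2N and 3955 ± 1198 in PND2R. miR-107 stood at 913 ± 212 ppm (SD, n = 4) in PND0, 726 ± 329 in PND2N and 883 ± 221 in PND2R. The growth-promoting miR-17 cluster and its paralogs, which lower brakes on the cell cycle, had 13 rows for 10 of 13 names. Of these 13 rows 0 passed, 13 were below 0 for PND2N against PND2R (median -0.26) and 12 for PND2N against PND0 (median -0.35), and 8 were below 0 for PND2R against PND0 (median -0.14). The more abundant of the 2 rows of miR-92a, the cluster's highest member, stood at 6619 ± 2260.3, 5381 ± 1832 and 5777 ± 608 in PND0, PND2N and PND2R. miR-20a stood at 2868 ± 1190.0, 2302 ± 1310.1 and 2953 ± 1205 in PND0, PND2N and PND2R. The list of other growth-restraining miRNAs, let-7, miR-98, miR-34, miR-26, miR-29 and miR-449, had 16 rows for 12 of 19 names, of which 0 passed. The rows were of let-7, miR-98, miR-34c and miR-29, most of them let-7, and none was of miR-26 or miR-449. Of the 16 rows 9 were below 0 and 7 above for PND2N against PND2R (median -0.040), and 13 were below 0 for PND2R against PND0 (median -0.18). let-7i, the most abundant, stood at 27661 ± 4518, 28319 ± 7489 and 24329 ± 2792. Medians over all 268 rows were -0.11 for PND2N against PND2R, -0.15 for PND2N against PND0 and -0.0052 for PND2R against PND0. Rows of near-identical copies, such as those of miR-103 and let-7f, can share reads and are uncertain.

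Likeness of pattern was measured as Pearson's r of log2(share + 10) over the 12 libraries, among the rows above the floor in all of them, as a description in which points share depth and scaling. The 5 rows most like miR-16 were miR-152 (r = 0.85), miR-143-5p (0.82), miR-18a (0.78), miR-130b (0.76) and miR-421-3p (0.74). For miR-15b they were miR-339 (0.87), miR-339-5p (0.86), the 2 rows of miR-133a-3p (0.82 and 0.81) and miR-30b-5p (0.77). For miR-195 they were miR-17-5p (0.92), miR-320 (0.89), miR-107 (0.88), miR-199b-5p (0.87) and 1 row of miR-103 (0.87). miR-497 was nearest to miR-15b (0.82), miR-374b-5p, miR-339-5p, miR-155-5p and miR-320 (0.79 to 0.78). Within the family, r was 0.39 between miR-16 and miR-15b, 0.23 between miR-16 and miR-195 and 0.76 between miR-497 and miR-195. By likeness to miR-16, miR-15b ranked 26 of 159 rows, and by likeness to miR-15b, miR-16 ranked 66 of 159.

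**Figure D5:**
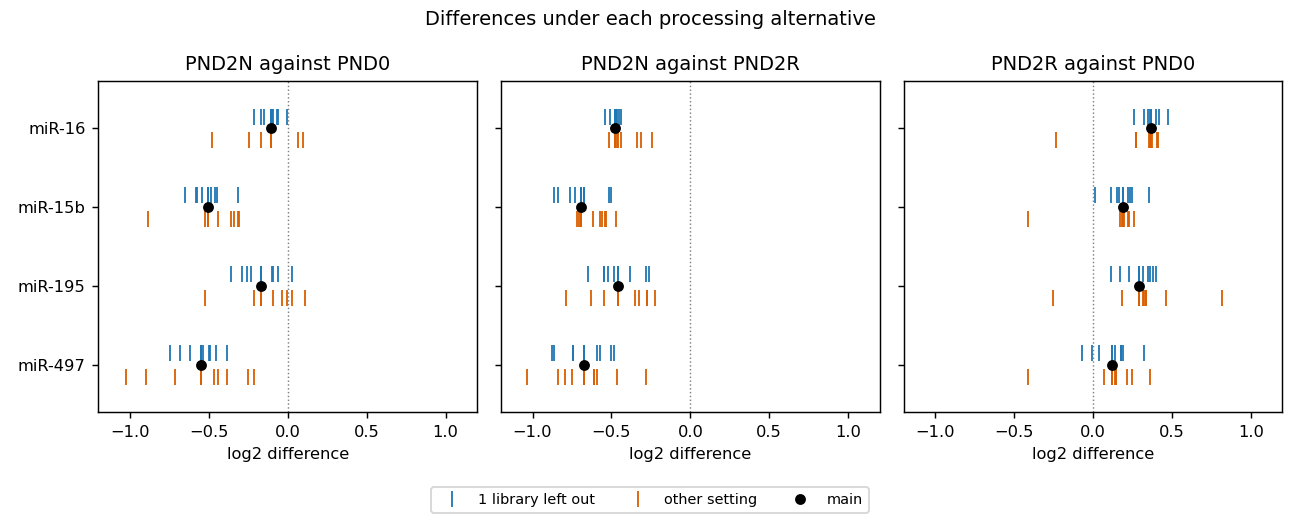
log2 difference (x axis) of each member under every processing setting; black points are the values reported above, blue marks leave out 1 library each, orange marks are other settings. For PND2N against PND2R every mark of the 4 members lies below 0, from -1.04 to -0.23. Some marks repeat the black point, because those settings cannot move the estimate. For PND2N against PND0 the marks of miR-16 and miR-195 fall on both sides of 0, and those of miR-15b and miR-497 below it. For PND2R against PND0 each of the 4 members has marks on both sides.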

How the data were processed

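Small RNA was sequenced from the uteri of 12 gilts. Per the labels' protocols, libraries were made from 500 ng of total RNA each (NEBNext kit for small RNA, 6 cycles of PCR) and read as 50 bp single ends on an Illumina HiSeq. Sscrofa 10.2 and FastQC are named, per the submitters' processing notes; the aligner, the counter and the normalization method are not given in the sources used here. For each miRNA row the authors deposited a normalized expression signal. From the values, this signal is a whole number of reads times 1 step per library, with values under 1 raised to 1. Values of up to 1000 reads were whole within 0.1 of a read in all cases (100%), and over the full range 95.6% or more were in each library. Deposited totals rose with depth, from 173022 to 445408 in 7 libraries of fewer than 1000000 reads to 721068 to 1048717 in the 5 others, so each value was divided by its library's total. The reads carry no molecular identifiers, so Poisson intervals (95%) and floors (3 reads) cover counting error only.

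Groups came from the labelled feeding; replicates were numbered in accession order. limma 3.58.1 in R 4.3.3 (empirical Bayes with trend, two-sided, 9 residual degrees of freedom) was fitted to log2(share + 10), with 1 coefficient per group over 12 libraries, on the 268 rows exceeding the floor in 4 or more libraries. Fold changes on this scale understate changes of low miRNAs. The test was also tried on simulated counts at the depths of these libraries, with the same dispersion for every row, unlike the real rows. It called 41% to 43% of rows changed 2-fold and 72% to 81% of rows changed 4-fold. Of unchanged rows it called 0.385% to 1.25%. No 2 libraries were identical. Every row with a family name is described; list members named are among the 4 most abundant of their list, and likeness names the 5 highest r. Members and lists were chosen with earlier results of these data known. Figures were drawn with matplotlib 3.10.9.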

Additional observations from a re-analysis of the deposited data

How the results depend on the processing

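Each of the 12 member results was recomputed under up to 25 alternatives, and 0 of the 297 values passed an adjusted p of 0.05 (smallest 0.130). Some alternatives change only the rows tested, the estimate of spread or the group not compared, and so cannot move a log2 difference. For PND2N against PND2R none of the others changed a sign. With 1 library left out, miR-16 ranged from -0.54 to -0.44 and miR-15b from -0.86 to -0.50. In these fits miR-195 ranged from -0.65 to -0.26 and miR-497 from -0.87 to -0.48. In the other comparisons 11 values changed sign, and the cause was not tested. They count 1 estimate of miR-195 for PND2N against PND0, 0.029, under both of the settings that gave it. These settings, without the libraries under 100000 reads and without PND2N replicate 2, drop the same library from the groups compared. For PND2N against PND0, miR-16 went to 0.10 with TMM factors and 0.068 with median-of-ratios factors, and miR-195 to 0.11 with library weights and 0.029 without the libraries under 100000 reads (-0.36 to 0.029 with 1 library left out). For PND2R against PND0, the deposited values gave -0.24 for miR-16, -0.41 for miR-15b, -0.25 for miR-195 and -0.41 for miR-497, and leaving out 1 library gave -0.070 to 0.32 for miR-497, 0.010 to 0.36 for miR-15b, 0.11 to 0.40 for miR-195 and 0.26 to 0.47 for miR-16. The number of members with an unadjusted p under 0.05 for PND2N against PND2R, 3 as reported, was 0 on the deposited values, with TMM factors and without the libraries under 100000 reads, 1 with median-of-ratios factors, 4 with depth class as a term, and 1 to 3 with 1 library left out. Over all rows 0 passed in the 3 comparisons, with 22, 34 and 33 at an unadjusted p under 0.05 (PND2N against PND0, PND2N against PND2R, PND2R against PND0). With library weights 1 row passed for PND2N against PND0, and with depth class as a term, chosen after seeing the data, 1 passed for PND2N against PND2R; leaving out 1 library gave 0 to 1, 0 to 5 and 0 to 2 rows, none a family member. Without PND2R replicate 4 the 5 and the 2 arose, and without PND0 replicate 4 the 1.

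The alternatives for miR-195 and miR-497 and the permutation tests were added after seeing the data. The row of miR-497 was not above the floor in all 12 libraries, so that filter gave no value for it. The planned count tests (edgeR, DESeq2 and limma voom) were not run, because the deposited values are a normalized signal whose floor removes the lowest reads. No paired analysis was possible because the replicate numbers follow accession order and pair no animals. Depth limits miR-195 and miR-497 to 0 to 4 reads in the libraries under 100000 reads.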
